A study of Mus musculus with 4 samples.

Results

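Cluster 28, named Mecom/Sema3a in the deposited annotation, was the largest cluster of neurons in single-nucleus RNA sequencing of the mouse posterior hindbrain, a block of tissue holding the area postrema and the nucleus tractus solitarius. Its members were taken as the nuclei that passed the quality filter of the authors and carried that cluster name. They numbered 227 of 12539 neurons and of 39461 kept nuclei, and the other 12312 neurons, spread over 133 further clusters, served for comparison. Clusters were built from the expression of these same nuclei, so every level set against the other neurons is a description without a test.

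The deposit held 4 libraries, 2 per group, one group being control and the other named AgRP-Gq;POMC-Gi. AgRP-Gq;POMC-Gi mice carried 1 copy each of AgRP-IRES-Cre and POMC-Dre, which switched on the excitatory receptor hM3DGq in AgRP neurons and the inhibitory receptor hM4DGi in POMC neurons. Control mice carried the same floxed or rox-stopped receptor alleles, hM3DGqfl/- and hM4DGifl/-, but neither recombinase, and their label gives the genotype as WT. All mice were 12 to 20 weeks old on a C57BL/6 background, of both sexes, and all received 3 mg/kg clozapine N-oxide (CNO), the ligand of both receptors, 1 h before death and without food, so that the ligand was common to both groups and the receptors were not. The receptors were placed in AgRP and POMC neurons, which send axons to the hindbrain, and not by design in the neurons described here. The sources differ on the number of mice, with 2 per group in one place and 2 males and 2 females per group in another, and by the methods tissue of a condition was pooled. Which mouse or mice each library came from was not given in the sources used here, so p-values measure the spread between libraries, which may be technical in part.

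Glutamatergic neurons of the nucleus tractus solitarius and its neighbours load synaptic vesicles with glutamate through the transporter VGLUT2, encoded by *Slc17a6*, and relay visceral and descending signals. *Mecom* (also called EVI1 or PRDM3) encodes a zinc-finger transcription factor of the PRDM family, best known from blood stem cells, and *Prdm16* encodes its closest relative. *Sema3a* encodes a secreted class 3 semaphorin, a guidance cue that acts through neuropilin and plexin receptors and that in the adult is held in the matrix around some neurons.

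Cluster 28 was found in every library. Control 1 held 29 of its nuclei, control 2 held 63, AgRP-Gq;POMC-Gi 1 held 88 and AgRP-Gq;POMC-Gi 2 held 47. As shares of all kept neurons these were 1.17% (95% exact Clopper-Pearson interval 0.788 to 1.68%), 2.30% (1.77 to 2.94%), 2.38% (1.91 to 2.92%) and 1.29% (0.951 to 1.72%) in the same order, intervals that cover counting error only. The groups overlapped, because each had 1 library near 1.2% and 1 near 2.3%. The mean share was 1.74% ± 0.798 (SD, n = 2) in control and 1.84% ± 0.770 (SD, n = 2) in AgRP-Gq;POMC-Gi libraries, a difference of 0.0983 percentage points (two-sided exact permutation test, p = 0.667, where 2 libraries against 2 cannot give less than 0.333). Leaving out control 1 turned this difference to -0.466 and leaving out AgRP-Gq;POMC-Gi 1 turned it to -0.446 percentage points.

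A nucleus of the cluster held a median of 11404 unique molecular identifiers (UMIs), with 2328 to 28925 in all, against a median of 8652 in the other neurons, and summed over the cluster the libraries held between 388745 and 1034235 UMIs. None of the cluster's barcodes recurred in the cluster in another library. Levels are given as counts per 1e6 UMIs (CPM), summed over the nuclei of a population in 1 library, with the mean and SD over 4 libraries unless stated. Counting from the 3′ end of nuclear RNA, CPM compares 1 gene between populations, not genes with each other. A pair of features set libraries apart in the cluster and in the other neurons. RNA of *Ttr*, the choroid plexus transcript, reached all 63 nuclei of control 2 and all 47 of AgRP-Gq;POMC-Gi 2, at 789 and 532 CPM, against 0 and 4.83 CPM in control 1 and AgRP-Gq;POMC-Gi 1. *Xist*, the RNA of the inactive X chromosome, stood at 352, 301 and 379 CPM in the first 3 libraries and at 59.5 CPM in AgRP-Gq;POMC-Gi 2.

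The defining markers of neurons and of glutamatergic neurons were present. *Rbfox3*, which encodes the neuronal nuclear protein NeuN, stood at 280 ± 27.4 CPM against 255 in the other neurons and had a UMI in 87.2% of the nuclei. *Slc17a6* stood at 142, 180, 159 and 164 CPM in control 1, control 2, AgRP-Gq;POMC-Gi 1 and AgRP-Gq;POMC-Gi 2. That was 161 ± 15.8 CPM, 2.18-fold the 74.0 CPM of all other neurons, with a UMI in 79.7% of the cluster's nuclei, 34.9% of the other neurons and 3.49% of oligodendrocytes, which have a median depth of 2460 UMIs. The ratio of *Slc17a6* was 1.16 against the 71 other glutamatergic clusters alone, those with a mean *Slc17a6* CPM at least 4-fold that of *Slc32a1*, so it placed the cluster in that class and did not set it apart within it.

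All 5 genes of GABA and glycine release stood at least 2-fold below the other neurons. *Slc32a1*, the vesicular transporter for both transmitters, had 2, 1, 4 and 2 UMIs in the libraries, or 3.46 ± 1.58 CPM against 27.7. It was seen in 3.97% of nuclei. In oligodendrocytes, of lower depth, it was seen in 2.82% of nuclei and stood at 10.7 CPM. *Gad1*, an enzyme of GABA synthesis, stood at 5.71 ± 4.47 CPM against 51.6 and *Slc6a5*, the glycine transporter of glycinergic terminals, at 8.81 ± 4.64 against 84.9. *Gad2*, the other GABA-synthesizing enzyme, was the least depleted of these, at 18.6 CPM against 97.1 with a UMI in 28 of the 227 nuclei. Among the 12760 genes detected in 5% or more of the nuclei of either population, 1.22% stood at least 2-fold above and 3.02% at least 2-fold below the other neurons.

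**Figure D1:**
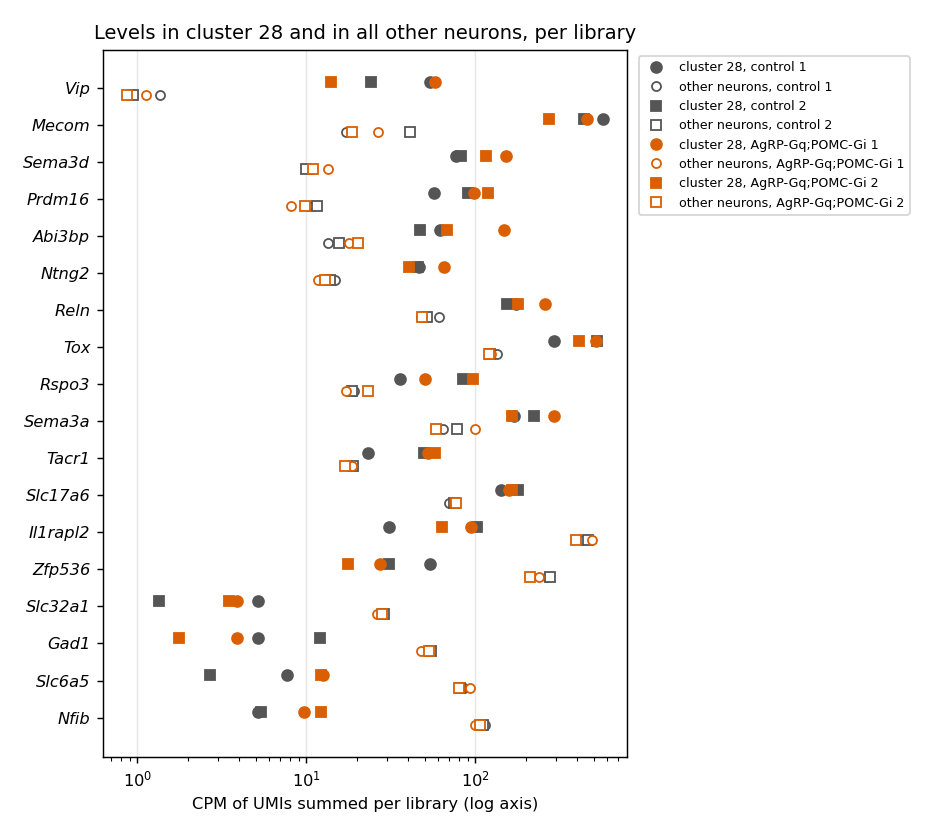
CPM (log axis) of 18 genes in each library, with filled symbols for cluster 28 and open symbols for all other neurons, grey for control, orange for AgRP-Gq;POMC-Gi, circles for replicate 1 and squares for replicate 2. Every filled symbol lies to the right of the open ones from *Vip* to *Slc17a6* and to the left from *Il1rapl2* to *Nfib*.

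The names of the cluster described its nuclei in part. *Mecom* (ENSMUSG00000027684, chr3:29951296-30548008, minus strand, GRCm38) stood at 571, 437, 456 and 271 CPM, in the library order above. Its mean of 434 ± 124 CPM was 16.8-fold that of the other neurons (25.9 CPM), and it had a UMI in 110 nuclei, 48.5% of the cluster, against 3.33% of the other neurons and 0.672% of oligodendrocytes. *Sema3a* (ENSMUSG00000028883, chr5:13125414-13602565, plus strand) stood at 170, 223, 290 and 164 CPM, a mean of 212 ± 58.5 against 75.0, and had a UMI in 64.8% of nuclei against 21.2%. Both genes were seen in 78 nuclei (34.4%) and neither in 48 (21.1%).

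Neither name was restricted to the cluster. Among the 134 neuronal clusters it had rank 4 for *Mecom*, behind clusters 66 (793 CPM), 173 (Mecom/Oprk1, 677 CPM) and 137 (Mecom/Col12a1, 591 CPM), yet by its size it held 21.2% of the 520 neurons with a *Mecom* UMI. For *Sema3a* its rank was 11, and cluster 73 (Sema3a/Klhl1) was highest at 702 CPM. When each nucleus was thinned to 2000 UMIs, which kept all 227 nuclei and left out 166 of the other neurons, *Mecom* was seen in 35.2% of the cluster against 2.03% and *Sema3a* in 30.8% against 9.28%.

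Among genes seen in 20% or more of its nuclei, the one with the highest ratio was *Vip* (ENSMUSG00000019772, chr10:5639218-5647617, plus strand), which encodes vasoactive intestinal peptide, a neuropeptide that raises cyclic AMP in its target cells. *Vip* had 21, 18, 60 and 8 UMIs, or 54.0, 24.2, 58.0 and 14.0 CPM, a mean of 37.6 ± 21.8 CPM against 1.07 in the other neurons (35.0-fold). No other neuronal cluster reached this level, the next being cluster 95 (Tfap2b/Esr1) at 18.1 CPM. A *Vip* UMI was seen in 49 of the 227 nuclei (21.6%), against 0.796% of the other neurons and 0.327% of oligodendrocytes, and these 49 were 33.3% of all 147 neurons with a *Vip* UMI.

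The 250 bases before the RefSeq start of *Vip* are shown because the gene led the cluster and because its promoter holds the bases of a cyclic AMP response element, the site bound by CREB family factors. The 250 bases before the inner of the 2 RefSeq starts of *Mecom* are shown for the gene that named the cluster, since that start lies within the antisense gene *Mecomos* described further on. Both are read 5′ to 3′ on the strand of the gene from the RefSeq table of GRCm38.p6, at chr10:5638968-5639217 (plus) and chr3:30013205-30013454 (minus), with the letters TGACGTC in capitals where they occur.
Vip: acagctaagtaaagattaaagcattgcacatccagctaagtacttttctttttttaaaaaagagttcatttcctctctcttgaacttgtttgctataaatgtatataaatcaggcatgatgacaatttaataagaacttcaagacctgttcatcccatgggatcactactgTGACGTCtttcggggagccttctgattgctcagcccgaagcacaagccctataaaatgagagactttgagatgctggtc
Mecom: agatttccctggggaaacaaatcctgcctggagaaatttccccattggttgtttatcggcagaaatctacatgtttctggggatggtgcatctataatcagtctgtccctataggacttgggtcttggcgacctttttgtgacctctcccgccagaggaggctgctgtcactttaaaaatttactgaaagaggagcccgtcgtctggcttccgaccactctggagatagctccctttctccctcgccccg
The match in *Vip* began 79 bases before the start. Searched on both strands, TGACGTC occurred in 2.78% of the 32851 windows of this length in the table, and the full palindrome TGACGTCA, which overlaps it, in 1.55% and in neither gene shown. A match of letters is a description of the window and not of a bound site.

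Of 20 semaphorin genes, 17 passed the 5% minimum in the cluster or the other neurons. Of these 17, 3 (*Sema3a*, *Sema3c* and *Sema3d*) stood at least 2-fold above and 3 (*Sema3f*, *Sema6a* and *Sema6c*) at least 2-fold below. Over all genes these shares were 1.22% and 3.02%. *Sema3a* is counted here though it names the cluster, and the median ratio was 0.985 beside 1.00 over all genes. *Sema3d* came after *Vip* and *Mecom* in ratio (77.2, 81.9, 152 and 116 CPM, mean 107 ± 34.6 against 11.3), and only cluster 182 (Samd3/Cnpy1) was higher. *Sema3c* stood at 51.8 CPM against 19.3. *Sema3e*, the class 3 member that signals mainly through plexin D1, stood at 112 CPM against 67.1 and did not reach 2-fold.

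The receptors and signalling partners of the semaphorins stood close to the other neurons. None of the 18 genes of that list that passed the minimum stood 2-fold above or below, with a median ratio of 0.892. The nearest to 2-fold above was *Nrp2*, a neuropilin co-receptor, at 173 CPM against 87.5. *Nrp1*, the co-receptor that binds SEMA3A itself, stood lower, at 46.6 CPM against 76.4. Of the 9 genes of the perineuronal net list that passed the minimum, 1 stood at least 2-fold above (1.22% of all genes did). It was *Ptprz1*, a receptor phosphatase, at 279 ± 78.9 CPM against 118.

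Of the 13 PRDM family and partner genes that passed the minimum, 2 stood at least 2-fold above, *Mecom* and *Prdm16* (1.22% of all genes did). *Mecom* is counted here though it names the cluster. *Prdm16* stood at 56.6, 89.9, 98.6 and 119 CPM, a mean of 91.0 ± 26 against 9.88, and was highest in cluster 45 (Prdm16/Zfp804b, 211 CPM). The co-repressors *Ctbp1* and *Ctbp2*, which bind both proteins, had ratios of 0.911 and 1.11 to the other neurons.

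Among other leading genes, *Reln*, the secreted glycoprotein reelin, stood at 191 ± 46.1 CPM against 52.3. *Tox*, a nuclear HMG-box protein, stood at 437 ± 109 CPM against 125, and *Rspo3*, an R-spondin that enhances Wnt signalling, at 66.8 ± 28.3 against 19.6. *Ntng2*, the membrane-anchored netrin G2, and *Abi3bp*, an extracellular matrix protein, stood at 49.2 and 81.2 CPM against 13.2 and 16.8. The polarity gene *Pard3b* and the antisense gene beside it, *Pard3bos1*, stood at 186 and 65.4 CPM against 79.8 and 27.6. The growth factor gene *Vegfc* was the most even over the libraries, at 38.6, 37.6, 37.7 and 45.5 CPM against 16.5.

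The other 10 of the 25 genes with the highest ratios were *Prrg1*, *Gpr149*, *Tacr1*, *Dlk1*, *Gm45352*, *Ighm*, *Tmem163*, *Gm2164*, *Agbl1* and *Nptx1*, with ratios between 2.15 and 2.82. *Tmem163*, a zinc transporter of synaptic vesicles, was seen in 87.7% of nuclei against 35.6% of the other neurons, the highest share of the 25. *Prrg1* is also a gene of oligodendrocytes, where it stood at 161 CPM and in 26.8% of nuclei.

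Of 47 genes listed for receptors that descending and circulating appetite signals act on, 15 were detected in 5% or more of the cluster's nuclei. Of the 17 that passed in the cluster or the other neurons, 2 stood at least 2-fold above and 1 at least 2-fold below. Over all genes these shares were 1.22% and 3.02%. *Mc4r*, the melanocortin receptor on which AgRP and the POMC product α-MSH act in opposition, had 3, 12, 2 and 5 UMIs in 14 nuclei, or 8.62 ± 5.82 CPM against 2.08. *Tacr1*, the substance P receptor, stood at 45.7 ± 15.4 CPM against 18.2.

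*Lepr*, the leptin receptor, stood at 28.5 ± 6.5 CPM against 17.5, with a UMI in 23.8% of nuclei, and *Hcrtr2*, an orexin receptor, at 82.1 CPM against 50.7. The NPY receptors *Npy5r* and *Npy1r* stood at 18.8 and 6.71 CPM against 11.1 and 7.54. *Glp1r* and *Calcr*, the receptors for GLP-1 and calcitonin, fell under the minimum in the cluster, at 2.04 and 2.07 CPM, and *Tacr3*, the neurokinin B receptor, was close to absent at 0.242 CPM against 11.

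Of 10 neuropeptide genes that passed the minimum in the cluster or the other neurons, *Vip* alone stood at least 2-fold above and 5 stood at least 2-fold below (1.22% and 3.02% over all genes). *Penk*, the precursor of the enkephalins, stood at 77.2 CPM against 42.2 and was seen in 29.1% of nuclei. The 5 below were *Cartpt*, *Nppc*, *Gal*, *Cck* and *Adcyap1*, between 0.679 and 3.59 CPM. *Agrp* stood at 88.4 CPM in the cluster and 88.0 in the other neurons. Its annotated gene model overlaps those of *Ripor1* and *Ctcf*, and whether these UMIs came from AgRP transcripts was not tested.

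Several factors that define hindbrain lineages were absent or near absent. The homeobox genes *Lbx1*, *Barhl1* and *Barhl2* had no UMI in any of the 227 nuclei (*Lbx1* stood at 1.95 CPM in the other neurons), which allows a share of up to 1.32% of nuclei with a UMI. *Lmx1b*, *Pax8*, *Zic1* and *Zic4* stood at or below 1.32 CPM, against 16.2 to 25.1 in the other neurons. Of 38 lineage factors that passed the minimum, 16 stood at least 2-fold below and 3 at least 2-fold above. Over all genes these shares were 3.02% and 1.22%. A level of 0 CPM gave rank 76 for *Lbx1*, 27 for *Barhl1* and 15 for *Barhl2* among the 134 neuronal clusters. Clusters at the same level share a rank, so most neuronal clusters had no UMI of *Barhl1* or *Barhl2*. The absent homeobox genes were also low in the clusters most like cluster 28 (30, 45, 62, 90 and 33, described below). *Lbx1* stood at 0 CPM in 30, 45 and 33 and at 0.571 and 2.60 CPM in 62 and 90. *Barhl1* and *Barhl2* stood at or below 0.611 CPM there, and *Lmx1b* between 1.25 and 14.6 CPM.

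The 3 above were *Zfhx3* (985 CPM against 474), *Lhx1*, a LIM homeodomain factor (30.7 against 14.4), and *Tfap2a* (13.7 against 6.20). *Nfib*, a nuclear factor I gene of late-born neurons, had the lowest ratio among genes seen in 20% or more of the other neurons (0.0755), at 5.15, 5.37, 9.67 and 12.2 CPM against 107. The median of the other neuronal clusters was 22.9 CPM, and like clusters 30, 45, 62, 90 and 33 stood at 2.23, 33.4, 27.8, 22.0 and 23.1 CPM. *Meis2*, a cofactor of Hox proteins, stood at 583 ± 35.9 CPM against 348.

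Of 10 Hox genes that passed, none stood 2-fold above and *Hoxb2*, *Hoxd3* and *Hoxb6* stood at least 2-fold below (3.02% of all genes did). *Hoxc4* stood at 52.7 CPM against 41.4 and *Hoxb3* at 28.6 against 49.9. The other genes of lowest ratio were *Grik3*, a kainate receptor subunit (6.32 CPM against 77.8), *Zfp536*, a zinc-finger repressor (32.4 against 248), *Il1rapl2*, a synaptic adhesion protein (72.4 against 445), and the non-coding or unnamed genes *Gm32647*, *Gm3764* and *D030068K23Rik*.

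Of 40 potassium channel genes that passed, none stood 2-fold above and 7 stood at least 2-fold below (3.02% of all genes did), among them *Kcnip4*, an auxiliary subunit of A-type channels (1716 CPM against 4183). *Kcnq5*, a subunit of the M-current, stood at 919 CPM against 522. Of 23 glutamate receptor genes, 3 stood at least 2-fold below, *Grik3*, *Grin2c* and *Grin2a* (220 CPM against 532), and none above.

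Markers of other cell types stood near or below the level of the other neurons. Summed over 8 oligodendrocyte markers the cluster held 249, 195, 123 and 154 CPM, in the library order above, against 313, 272, 152 and 198 in the other neurons, so that both populations were higher in the control libraries. The 8 astrocyte markers summed to between 36.7 and 49.0 CPM against 54.0 to 94.8. The 6 ependymal and choroid markers followed *Ttr*, at 2.57, 793, 8.70 and 553 CPM. The 5 markers of oligodendrocyte precursors summed to at most 10.3 CPM, the 8 vascular markers to at most 38.9 CPM and the 7 microglial markers to between 177 and 206 CPM, against 180 to 193 in the other neurons.

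The clusters most like cluster 28 were found from the Pearson correlation of mean log2(CPM + 10) over the 11495 genes detected in 20% or more of the nuclei of any neuronal cluster that had 50 nuclei or more. They were clusters 30 (Zfp804b/Npas1, r = 0.976), 45 (Prdm16/Zfp804b, r = 0.973), 62 (Reln/Calcr, r = 0.972), 90 (Pou4f1/Klhl1, r = 0.971) and 33 (Il1rapl2/Slc6a5, r = 0.970). These values are close together, genes are not independent, and the clusters share their libraries, so the order is a description.

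*Mecom* stood at 122 CPM in cluster 30 and 112 in cluster 45, and at or below 13.6 CPM in the other three. Clusters 30, 45, 62 and 90 had *Slc17a6* between 135 and 194 CPM, as in cluster 28, whereas cluster 33 was glycinergic, with *Slc6a5* at 221 CPM and *Slc17a6* at 5.32. *Vip* was at most 0.647 CPM in any of the 5.

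Of the 5 like clusters, cluster 45 held the most *Prdm16*, *Tox* and *Sema3e* (211, 394 and 253 CPM against 91.0, 437 and 112 in cluster 28). It also held more *Ebf1*, a helix-loop-helix factor (618 CPM against 157), and less *Sema3d* (20.5 CPM against 107). Of the 3 clusters with more *Mecom*, cluster 66 differed in transmitter. It held *Slc6a5* at 228 CPM, *Pax2*, a factor of inhibitory neurons, at 158 CPM, and *Slc17a6* at 5.69 CPM. Cluster 137 held *Mecom*, *Prdm16*, *Sema3a* and *Tox* together at 591, 96.1, 203 and 386 CPM but less *Reln* and *Sema3d* than cluster 28, at 17.9 and 29.0 CPM against 191 and 107.

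**Figure D2:**
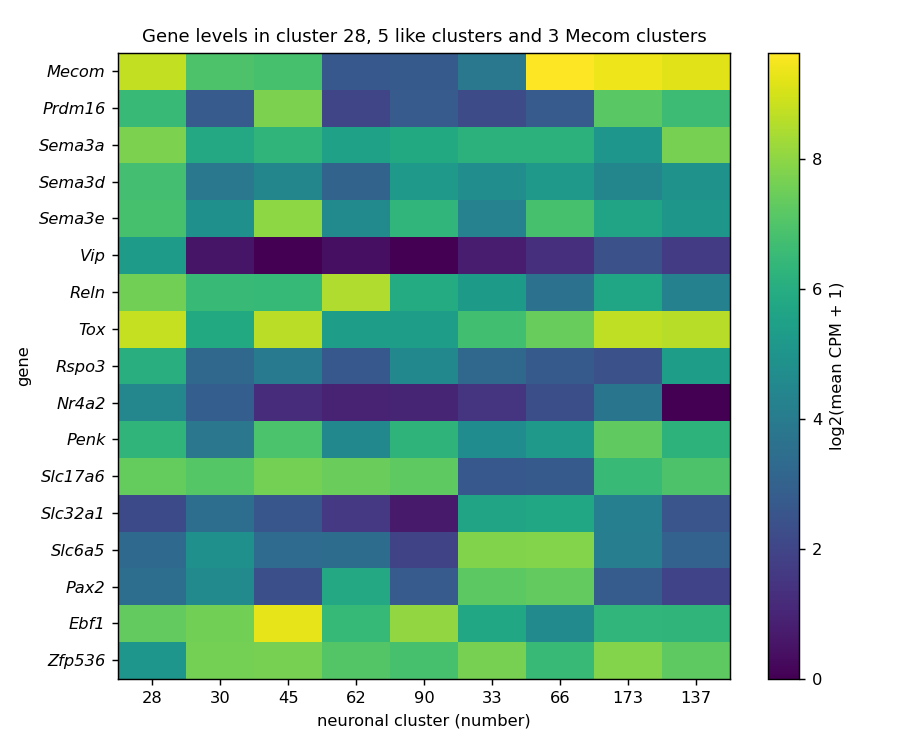
Colour gives log2(mean CPM + 1) of 17 genes (rows) in cluster 28, the 5 clusters of most similar profile and the 3 clusters with a higher *Mecom* level (columns), averaged over the libraries that hold the cluster. *Vip* is bright only in the first column, *Slc17a6* is dark in clusters 33 and 66, and *Mecom* with *Prdm16* and *Tox* recurs in clusters 45, 137 and 173.

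Within the cluster few nuclei held *Mecom* at 1 UMI. Of the 227 nuclei, 117 had no *Mecom* UMI, 10 had 1, 47 had 2 to 9, and 53 had 10 or more, up to 38. A *Mecom* UMI was seen in 19 of 29, 30 of 63, 42 of 88 and 19 of 47 nuclei of the 4 libraries, or 65.5%, 47.6%, 47.7% and 40.4%. *Sema3a* and *Prdm16*, of lower mean level, had 80 and 114 nuclei at 0 and 46 and 53 nuclei at 1 UMI. *Tox*, of a mean level like that of *Mecom*, had 74 nuclei at 0 and 15 at 1 UMI, and *Reln* had 136 and 19. Few nuclei at 1 UMI were thus not particular to *Mecom*. The depth of the nuclei with and without *Mecom* was similar, with medians of 11938 and 10837 UMIs.

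**Figure D3:**
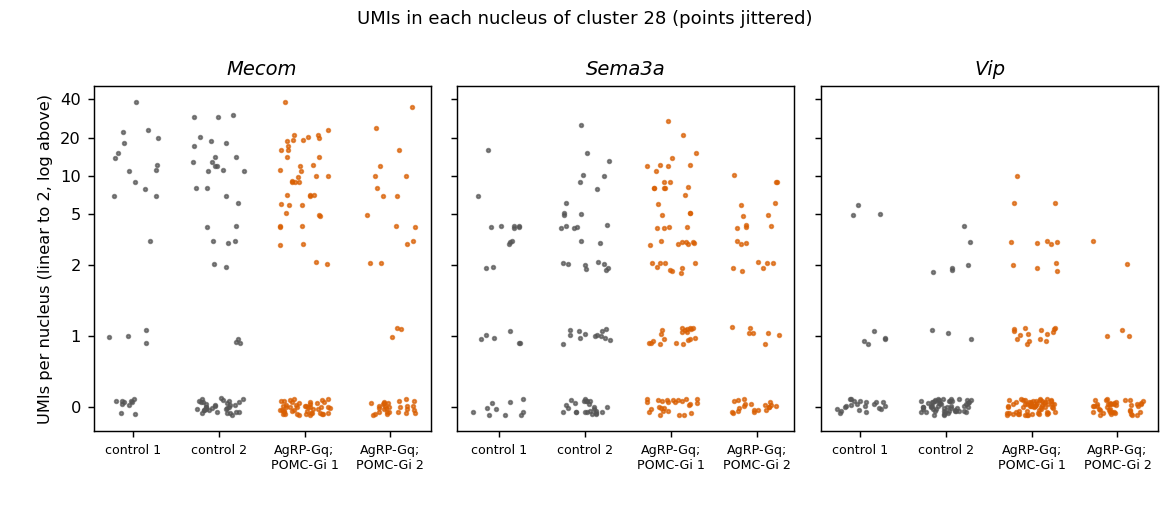
Each point is 1 nucleus of cluster 28, placed by its UMIs of *Mecom*, *Sema3a* or *Vip* (vertical axis linear up to 2 and logarithmic above, points jittered) in each library. *Mecom* has 117 nuclei at 0 and 10 at 1 UMI. *Sema3a* and *Vip*, both of lower mean level, have 46 and 26 nuclei at 1 UMI.

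The split at 1 *Mecom* UMI was chosen after the values were seen, and the 2 sides are ranges of 1 gene in 1 cluster and not named types. Since they were cut from the same nuclei, their other genes are described without a test. *Mecomos* (chr3:30012379-30054808, plus strand), an antisense gene lying inside *Mecom* on the opposite strand, stood at 45.5, 36.6, 45.9 and 26.9 CPM in nuclei with *Mecom* and had no UMI in the 117 nuclei without. A count of 0 there allows up to 3 UMIs over the group, or 2.19 CPM. The pooled level with *Mecom* (40.1 CPM) was 18.3-fold that floor, without the counting error of its own 55 UMIs. *Mecomos* was seen in 34 of the 110 nuclei with *Mecom*.

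*Vip* was also higher in the nuclei with *Mecom* in each library, at 74.5, 36.6, 93.6 and 26.9 CPM against 20.4, 11, 21.5 and 5.75 in those without, and was seen in 30.0% against 13.7% of them. *Reln* stood at 267 ± 90.3 CPM against 101 ± 64.8, *Sema3e* at 154 ± 46.1 against 66.9 ± 19.3 and *Sema3a* at 274 ± 56.5 against 147 ± 70.3, each higher with *Mecom* in 4 of 4 libraries. *Nr4a2*, an orphan nuclear receptor, was seen in 24.5% of nuclei with *Mecom* and 5.13% of those without. Other genes of highest ratio were *Cobll1*, *Adam33*, *Adamts18* and *Pard3bos1*, the last at 107 against 26.6 CPM.

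In the nuclei without *Mecom*, *Sema3d* and *Prdm16* were the higher ones, at 141 and 108 CPM against 75.9 and 76.4, in 4 of 4 libraries. *Nos1*, the neuronal nitric oxide synthase, stood at 53.6 ± 31.8 CPM without *Mecom* against 6.94 ± 5.52 with it. *Esr1*, the oestrogen receptor α, stood at 65.4 ± 49.3 against 10.7 ± 10.0, and *Utrn*, which encodes utrophin, at 165 ± 68.1 against 46.7 ± 14.8. *Hoxb5*, a Hox gene of the caudal hindbrain and cord, was seen in 28.2% of nuclei without and 8.18% with *Mecom*. *Slc17a6* hardly differed, at 172 against 151 CPM, and was seen in 80.3% and 79.1% of nuclei.

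**Figure D4:**
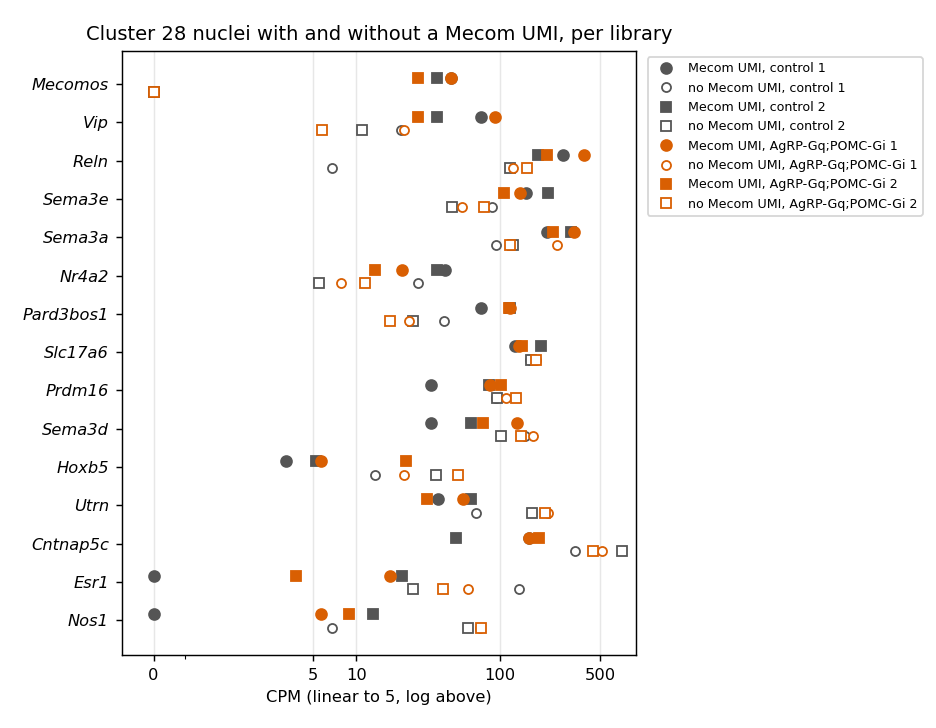
CPM (linear up to 5, logarithmic above) of 15 genes in the nuclei of cluster 28 with a *Mecom* UMI (filled) and without (open), for each of the 4 libraries (grey, control; orange, AgRP-Gq;POMC-Gi; circle, replicate 1; square, replicate 2). Filled symbols lie to the right for *Mecomos*, *Vip*, *Reln* and *Sema3e*, to the left for *Utrn* and *Esr1*, and overlap with open ones for *Slc17a6*.

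The comparison of AgRP-Gq;POMC-Gi with control nuclei asked whether driving AgRP neurons while silencing POMC neurons altered transcripts of the cluster 1 h after CNO. The quasi-likelihood test of edgeR on UMIs summed per library called none of the 12431 genes detected in 5% or more of the cluster's nuclei (0%) at a Benjamini-Hochberg adjusted p below 0.05. At an unadjusted p below 0.05 there were 596 (4.79%), and DESeq2 also called 0. Without the 5% minimum 14 genes were called, and leaving out 1 library raised the count to between 7 and 31, with the remaining library of that group assumed to vary like the others.

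The genes that describe the cluster did not pass the test either. Of the 25 genes of highest ratio, 17 had a positive and 8 a negative log2 fold change, with a median of 0.15 (0.00 over all genes tested) and a range of -0.88 to 1.21. An unadjusted p below 0.05 was seen in 5 of the 25, against 4.79% of all genes tested. *Mecom* had a log2 fold change of -0.35 ± 0.22 (SE, edgeR adjusted p = 0.976), *Sema3a* 0.31 ± 0.24 (adjusted p = 0.976) and *Vip* 0.28 ± 0.44 (adjusted p = 0.994). The lowest adjusted p of the 25 was 0.530, shared by *Abi3bp* (1.21 ± 0.31) and *Sema3d* (0.85 ± 0.22).

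The immediate early genes are transcribed within minutes of neuronal firing, and 10 of them formed the activity score of the study. In cluster 28, 6 of them were detected in 5% or more of the nuclei, and none of the 6 was called. *Homer1*, whose short form is induced by activity, stood at 74.6 and 60.4 CPM in control libraries and at 60.9 and 42.0 under AgRP-Gq;POMC-Gi (log2 fold change -0.22 ± 0.27, edgeR adjusted p = 0.994). *Nr4a1* stood at 30.9 and 12.1 against 13.5 and 12.2 CPM (-0.46 ± 0.51, adjusted p = 0.992), and its groups overlapped.

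The other 4 tested were *Jun* (-0.28 ± 0.63), *Junb* (-0.85 ± 0.71), *Btg1* (0.60 ± 0.52) and *1700016P03Rik*, the host transcript of miR-212 and miR-132 (-0.57 ± 0.43). They had 2 to 25 UMIs per library. *Fos* had 8, 3, 2 and 1 UMIs, 7 of the 8 in control 1 coming from 1 nucleus. *Gem* had 1, 0, 4 and 4 UMIs, *Nr4a3* 2, 0, 1 and 1, and *Fosl2* 1, 0, 1 and 0.

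None of the lists of transmitter, peptide, receptor, channel, semaphorin, lineage, Hox, activity-induced, glucocorticoid-induced, clock or cell type marker genes held a called gene. At an unadjusted p below 0.05, which 4.79% of all genes tested had, there were 5 of 38 potassium channels, 3 of 16 GABA-A and glycine receptors, 3 of 14 monoamine and acetylcholine receptors, 2 of 3 genes of monoamine and acetylcholine neurons, 2 of 16 semaphorins and 2 of 7 oligodendrocyte markers. There was 1 of 4 genes of GABA and glycine release, 1 of 26 lineage factors, 1 of 9 Hox genes, 1 of 13 PRDM family and partner genes and 1 of 16 calcium-binding proteins. The lists with 0 included 15 appetite receptors, 15 other activity-induced genes, 10 glucocorticoid-induced genes and 16 clock genes.

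The genes of smallest p in the group test included 2 neighbours of the *Agrp* locus. *Hsd11b2*, the enzyme that inactivates glucocorticoids, had 0 UMIs in both control libraries and 9 in each AgRP-Gq;POMC-Gi library (edgeR adjusted p = 0.530). The floor of 3 UMIs over the control group corresponds to 2.65 CPM, and the pooled 11.2 CPM of the AgRP-Gq;POMC-Gi group was 4.24-fold that floor. The 18 UMIs behind it carry counting error of their own, so this is not a lower bound. All nuclei with a UMI, 9 and 7, lay in AgRP-Gq;POMC-Gi libraries, so the gene passed the 5% minimum through that group alone. *Atp6v0d1*, a subunit of the vacuolar proton pump, stood at 56.6 and 67.1 against 108 and 117 CPM (log2 fold change 0.91 ± 0.22, adjusted p = 0.530).

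The same 2 genes were higher in the other neurons of the AgRP-Gq;POMC-Gi libraries, *Hsd11b2* at 8.19 and 8.76 CPM against 0.604 and 0.412 and *Atp6v0d1* at 92.2 and 89.9 against 64.8 and 66.7. They lie 42.7 and 0.651 kb from the *Agrp* gene model on chromosome 8 (GRCm38), and the AgRP-IRES-Cre allele was carried by 1 group alone, so the allele and the CNO effect cannot be told apart. The other 13 genes tested within 200 kb, *Agrp* included, had log2 fold changes from -0.55 to 0.65 and none had an unadjusted p below 0.05.

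The other genes of smallest p were *Lmo3*, a LIM-only transcriptional cofactor, *Plcl1* and *2610027K06Rik* among those higher in AgRP-Gq;POMC-Gi, and *Rnf220*, *Gm19409*, *Map6*, *Ptgds* and *Chchd10* among those lower. *Lmo3* had 22, 14, 126 and 43 UMIs, or 56.6, 18.8, 122 and 75.2 CPM (log2 fold change 1.72 ± 0.34, edgeR adjusted p = 0.257), and 46 of the 126 came from 1 nucleus. With 1 library left out, the log2 fold change of *Lmo3* ranged from 0.946 without control 2 to 2.51 without control 1. *Lmo3* was called without the 5% minimum (edgeR adjusted p = 3.81e-05). In the other neurons *Lmo3* stood between 32.5 and 39.5 CPM in all libraries.

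A second test asked whether the group difference in cluster 28 differed from that in the other neurons of the same libraries. It called 2 of 12431 genes (0.0161%), 1 with a higher and 1 with a lower difference in the cluster, and 572 (4.60%) had an unadjusted p below 0.05. The model gives each gene 1 dispersion for the small sums of the cluster and the large sums of the other neurons. Its common coefficient of variation between libraries was 0.0677, against 0.123 in the group test, so the spread of the small sums may be understated. The same number was called by DESeq2.

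*Rnf220* (chr4:117271463-117497052, minus strand), which encodes a ubiquitin ligase, fell in the cluster relative to the other neurons. It stood at 111 and 131 CPM in control libraries and at 37.7 and 70.0 CPM under AgRP-Gq;POMC-Gi, against 141 and 158, and 204 and 191, in the other neurons. The difference of the differences was -1.68 ± 0.25 (log2, SE, edgeR adjusted p = 0.0188) and was no longer called without AgRP-Gq;POMC-Gi 1 (-1.15, adjusted p = 0.159). In the group test of the cluster alone the log2 fold change of *Rnf220* was -1.20 ± 0.25 (edgeR adjusted p = 0.257). It was called without the 5% minimum (edgeR adjusted p = 0.00899). With 1 library left out, this fold change ranged from -1.58 without AgRP-Gq;POMC-Gi 2 to -0.805 without AgRP-Gq;POMC-Gi 1.

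Of 43, 98, 39 and 40 *Rnf220* UMIs in the libraries, 28, 61, 0 and 15 lay in the 2, 6, 0 and 1 nuclei with at least 5 UMIs, and 7 of these 9 nuclei had no *Mecom* UMI. The split at 1 *Mecom* UMI was made after the values were seen. The group test in nuclei without a *Mecom* UMI gave a log2 fold change of -2.19 (edgeR adjusted p = 0.000316). That side held only 10 nuclei of control 1 and 7 of the 9 nuclei above, so its p adds no independent support. In nuclei with a *Mecom* UMI the change turned to 0.36 (adjusted p = 0.994). The difference between these changes was not tested.

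*Plcl1* (chr1:55405921-55754285, plus strand), which encodes a catalytically inactive relative of phospholipase C, rose in the cluster relative to the other neurons. It had 62, 87, 248 and 158 UMIs, or 160, 117, 240 and 276 CPM, and stood at 297, 269, 261 and 213 CPM in the other neurons. The difference of the differences was 1.19 ± 0.19 (log2, SE, edgeR adjusted p = 0.0253) and was no longer called without AgRP-Gq;POMC-Gi 2 (0.97, adjusted p = 0.0825). In the group test of the cluster alone the log2 fold change of *Plcl1* was 1.00 ± 0.20 (edgeR adjusted p = 0.257). A *Plcl1* UMI was seen in 15 of 29, 32 of 63, 55 of 88 and 35 of 47 nuclei. Within the cluster, *Plcl1* was lower in nuclei with *Mecom* than in those without in all 4 libraries, 147 CPM on average against 243.

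Both called genes are far higher in oligodendrocytes, *Rnf220* at 1854 and *Plcl1* at 5469 CPM. The oligodendrocyte markers of the cluster were lower in the AgRP-Gq;POMC-Gi than in the control libraries, as given above, and their part in both results was not tested.

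The next genes in this test did not pass it with the 5% minimum in the main setting. *Lmo3* did with a term for the replicate number added (1.66, edgeR adjusted p = 0.0189). Upwards they were *Lmo3* (1.86 ± 0.37, edgeR adjusted p = 0.220), *Mkx*, a homeobox gene (1.06 ± 0.22, 0.353), *Pcp4*, a calmodulin-binding peptide (1.34 ± 0.29, 0.388), and *Gm37459* (1.04 ± 0.24, 0.586). Downwards they were *Gabra2*, a GABA-A receptor subunit (-0.86 ± 0.21, 0.793), *Gm26871*, *Zswim5* and *Gm19409*. With the gene filter of edgeR's filterByExpr in place of the 5% minimum, and with no filter, *Lmo3*, *Mkx*, *Pcp4*, *Gm37459* and *Gabra2* were called, with edgeR adjusted p from 3.40e-07 to 0.0336 under filterByExpr. With 1 library left out *Lmo3* ranged from 0.985 without control 2 to 2.71 without control 1. *Mkx* ranged from 0.90 to 1.27, *Pcp4* from 1.28 to 1.43, *Gm37459* from 0.836 to 1.24 and *Gabra2* from -1.10 to -0.518. These fits leave 1 library in a group, so no gene is named as called from them. *Mkx* stood at 51.5 and 71.1 CPM in control libraries and at 96.7 and 145 under AgRP-Gq;POMC-Gi. Of the immediate early genes, *1700016P03Rik* had the lowest p, with a difference of -1.19 ± 0.43 (edgeR adjusted p = 1.00).

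**Figure D5:**
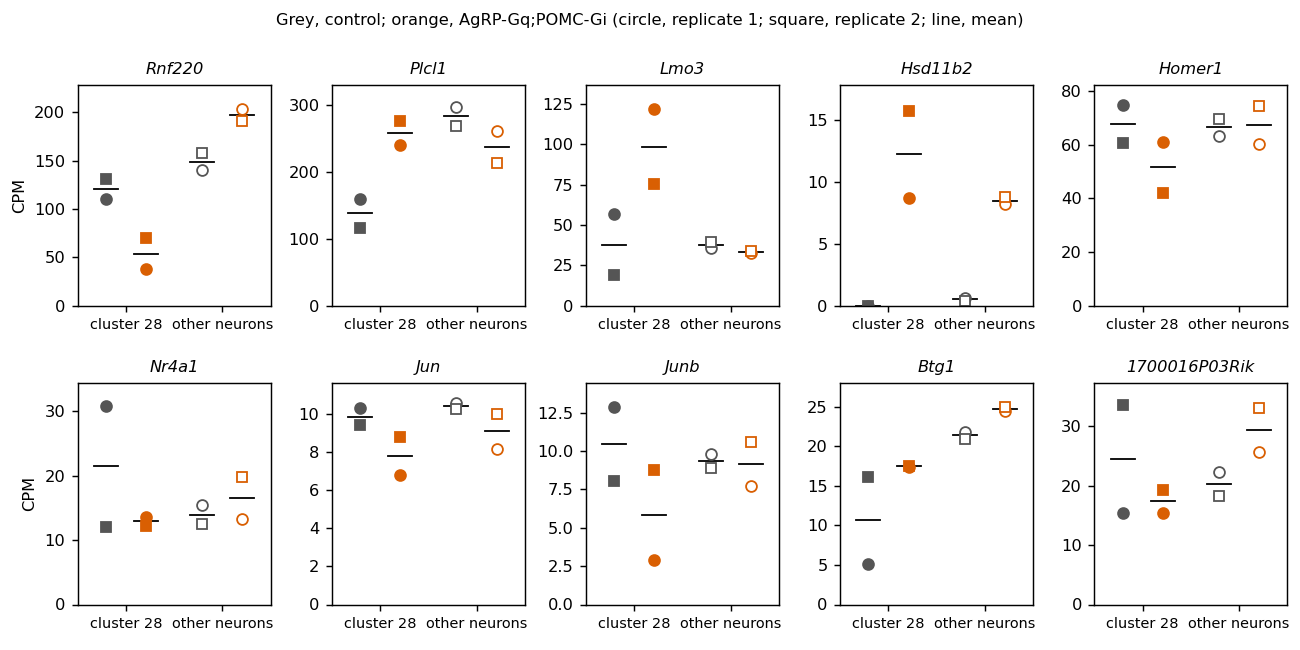
CPM of 10 genes in cluster 28 (filled) and in all other neurons (open) for control (grey) and AgRP-Gq;POMC-Gi (orange) libraries, with circles for replicate 1, squares for replicate 2 and a line at the mean of 2 libraries. *Rnf220* is lower and *Plcl1* higher in cluster 28 of AgRP-Gq;POMC-Gi libraries, whereas for *Nr4a1* and *Junb* the 2 groups overlap in cluster 28.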

How the data were processed

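The authors deposited raw UMI counts per gene and nucleus for 4 10x Genomics 3′ libraries of sorted nuclei, made with Cell Ranger 7.0.0 on GRCm38 (mm10) per the processing notes and methods, and a table of nuclei with quality calls (at least 800 UMIs, 500 genes and at most 10% mitochondrial UMIs, with a doublet caller) and cluster names, made with Seurat 4.3.0. Per-nucleus totals in the count matrices equalled those of the table in every barcode. The table also holds the authors' activity scores and categories, which were not used. Counts were summed per library over cluster 28 and over the other neurons and tested with edgeR 4.0.16 (TMM factors, quasi-likelihood, two-sided, Benjamini-Hochberg over all genes tested) in R 4.3.3, and with DESeq2 1.42.0 as an alternative. The interaction test used 8 sums, with library, population and population by group as terms. The test was checked on simulated counts. Shares, levels and figures were computed in Python 3.11.15 with scipy 1.17.1. The leading 25 and lowest 10 genes were the extremes of the CPM ratio among genes detected in 20% or more of the nuclei of the higher population, and up to 5 genes per direction were named for each test, beside the members of preset lists. The cluster and the lists were chosen with earlier results of these data known. Positions come from GENCODE M21. Intervals and floors cover counting error only.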

Additional observations from a re-analysis of the deposited data

Results flagged for a closer look

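In 2 genes the group difference of cluster 28 differed from that of the other neurons by edgeR's interaction test. *Rnf220* had a difference of -1.68 on the log2 scale, being lower in the AgRP-Gq;POMC-Gi libraries of the cluster and higher in those of the other neurons. Without the 9 nuclei holding at least 5 *Rnf220* UMIs, the cluster stood at 41.5 and 54.8 CPM in control libraries. In AgRP-Gq;POMC-Gi libraries it then stood at 37.7 and 44.2 CPM. *Plcl1* had a difference of 1.19, being higher in the cluster and lower in the other neurons. Without the 37 nuclei holding at least 5 *Plcl1* UMIs, the cluster stood at 74.09 and 77.35 CPM in control libraries. In AgRP-Gq;POMC-Gi libraries it then stood at 112.6 and 152.9 CPM. Groups of 2 libraries are too small for a check of single outlying samples.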

How the results depend on the processing

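Library sizes without TMM factors and DESeq2 left the counts of called genes at 0 in the group test and 2 in the interaction test, and filterByExpr left the group count at 0. Without the 5% minimum 14 genes were called in the group test and 11 in the interaction test, and 11 in the latter with filterByExpr. With 1 library left out the counts ranged from 7 to 31 and from 2 to 34. With the replicate block the counts were 5 and 3. *Lmo3* (edgeR adjusted p = 0.0163) and *Plcl1* (0.0299) were then called in the group test, and *Lmo3* (0.0189) also in the interaction test. Deviations of same-numbered libraries had a correlation of 0.0263 over 12431 genes, while *Ttr* was high in both libraries numbered 2, and the labels do not say what a number marks. Restricting the group test to nuclei with a *Mecom* UMI called 0 genes and to those without 2, *Rnf220* and *Lmo3*, alternatives chosen after seeing the data.

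The share difference was 0.226 percentage points of all kept nuclei, 0.181 of neuronal UMIs and 0.0983 with the replicate block, and ranged from -0.466 to 0.663 with 1 library left out. Thinning to 2000 UMIs raised the genes 2-fold above from 156 to 452 and those 2-fold below from 385 to 1315. Under the 8 alternatives 16 to 24 of the 25 leading genes stayed among the 25 highest, and *Mecom* stayed between 13.5-fold and 20.8-fold, *Sema3a* between 2.78-fold and 3.83-fold.

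In nuclei with *Mecom* only, the group change of *Rnf220* turned from -1.20 to 0.359. Changes of immediate early genes also turned sign. In nuclei with *Mecom* only *Jun* was 0.214, and in those without, *Homer1* was 0.125 and *Nr4a1* 0.173. With 1 library left out, the log2 fold change ranged from -0.904 to 0.226 for *1700016P03Rik*, from -0.639 to 0.00889 for *Homer1* and from -1.13 to 0.186 for *Nr4a1*, and the difference from the other neurons from -0.112 to 1.61 for *Btg1* and from -0.797 to 0.0726 for *Homer1*. Without a change of sign, the log2 fold change ranged from -1.58 to -0.151 for *Junb* and from 0.19 to 1.82 for *Btg1*. The difference of *1700016P03Rik* from the other neurons ranged from -1.62 to -0.188. The cause of the changes of sign was not tested. Detection at a fixed UMI count was measured for the cluster against the other neurons and not for these changes.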
